A study of Mus musculus with 12 samples.

Results

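The genes described here are 50 genes of mitosis and cell division, chosen by name for their known roles and found by symbol in all 3 expression tables of the study. They are 50 of the 22364 symbols that the tables share, and all 50 passed the filter on low values in each table. The study measured RNA in 12 libraries of cultured bone marrow cells of C57BL/6 mice, in 6 groups of 2 libraries. In each of 2 cotransductions, with MLL-AF9 or with E2A-HLF, lineage-negative marrow cells received such a fusion oncogene, known from human leukaemia, together with PRDM16, a transcription regulator of the PR domain family, or with PRDM16mut, a mutant form whose change is not stated. In the MLL-AF9 stable cells, marrow cells that already carried MLL-AF9 received PRDM16 or PRDM16mut. All cells grew in IMDM with 15% FBS and 10 ng/ml each of IL3, IL6 and SCF, and were collected after 10 days in selecting drugs, G418 with puromycin for the cotransductions and puromycin alone for the stable cells. Every group therefore carried a fusion oncogene and a form of PRDM16, and no group lacked both forms. A gene that was lower with PRDM16 was lower than with PRDM16mut, and the data do not say which of them moved it. Separate cultures are not named as the source of replicates, so every p-value reflects library-to-library spread that may be technical.

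Mitosis separates the copied chromosomes into daughter cells. Cdk1 with its cyclins drives entry, kinesins and spindle proteins build and move the spindle, the checkpoint kinases hold the cell until kinetochores are attached, and the anaphase-promoting complex then marks securin and the cyclins for destruction. Most of these genes are transcribed in a burst late in the cell cycle, which is why their summed level in a bulk culture is widely used as a measure of proliferation. Their promoters are known for CHR elements, the cell cycle genes homology region read by the MuvB complexes, and for CCAAT boxes, read by NF-Y.

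RefSeq promoters of 300 bases, from 250 bases before to 50 bases after the gene start, were on hand for 43 of the 50 genes as 46 entries. Kif20a, Ccna2, Cdc25c, Aurkb, Incenp, Tpx2 and Foxm1 had no entry. The promoters below are those with the CHR letters TTTGAA nearest the start among matches that lie wholly in the 100 bases before it, shown because they carry the sequence feature that most of the 43 genes shared, followed by those of Cdc25b and Pttg1, added after their values were seen because these genes moved opposite to the rest. Each sequence is the 100 bases before the start, read on the gene's own strand in build GRCm38.p6. Capitals mark TTTGAA or its reverse complement TTCAAA, and CCAAT or its reverse complement ATTGG.
Ccnf, chr17:24251410-24251509, minus strand: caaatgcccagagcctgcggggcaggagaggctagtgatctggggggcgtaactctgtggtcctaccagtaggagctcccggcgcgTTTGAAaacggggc
Cdk1, chr10:69352913-69353012, minus strand: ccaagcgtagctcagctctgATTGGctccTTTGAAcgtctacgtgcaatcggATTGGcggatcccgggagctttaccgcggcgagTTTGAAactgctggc
Kif22, chr7:127042421-127042520, minus strand: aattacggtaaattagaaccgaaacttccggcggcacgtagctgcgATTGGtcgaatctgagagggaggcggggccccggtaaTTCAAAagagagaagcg
Cdc20, chr4:118437344-118437443, minus strand: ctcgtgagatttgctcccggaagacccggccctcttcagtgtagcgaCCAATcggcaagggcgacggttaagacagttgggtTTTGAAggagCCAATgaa
Kif11, chr19:37376282-37376381, plus strand: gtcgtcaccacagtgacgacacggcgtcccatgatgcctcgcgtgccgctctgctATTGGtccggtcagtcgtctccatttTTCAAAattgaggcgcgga
Kif15, chr9:122950981-122951080, plus strand: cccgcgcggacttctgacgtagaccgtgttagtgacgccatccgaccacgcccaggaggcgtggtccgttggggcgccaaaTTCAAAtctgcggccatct
Cdc25b, chr2:131186848-131186947, plus strand: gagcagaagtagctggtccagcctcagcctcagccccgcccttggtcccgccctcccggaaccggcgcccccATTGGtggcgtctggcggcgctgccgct
Pttg1, chr11:43425982-43426081, minus strand: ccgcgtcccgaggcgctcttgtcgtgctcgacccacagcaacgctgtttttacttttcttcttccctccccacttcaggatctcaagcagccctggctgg

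TTTGAA, on either strand, lay in 34 of the 46 promoters of the mitosis genes (73.9%), and in 17.9% of all 32851 promoters in the table. CCAAT, on either strand, also lay in 34 of the 46 (73.9%), against 37.4% of all promoters. These letters were held together by 29 promoters of the mitosis genes (63%), of 26 genes, against 6.95% of all promoters. The motifs can share a single base where their ends meet. In all, 30 of the mitosis promoters had TTTGAA within 50 bases of the start. Genes of S phase, a neighbouring program, held CCAAT in 61.5% of 39 promoters but TTTGAA in 10.3%. Other kinetochore genes held CCAAT in 67.9% and TTTGAA in 35.7% of 28 promoters. Neither motif was found in 7 of the 43 genes, and a match is a description of the letters, not a sign of binding.

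**Figure D1:**
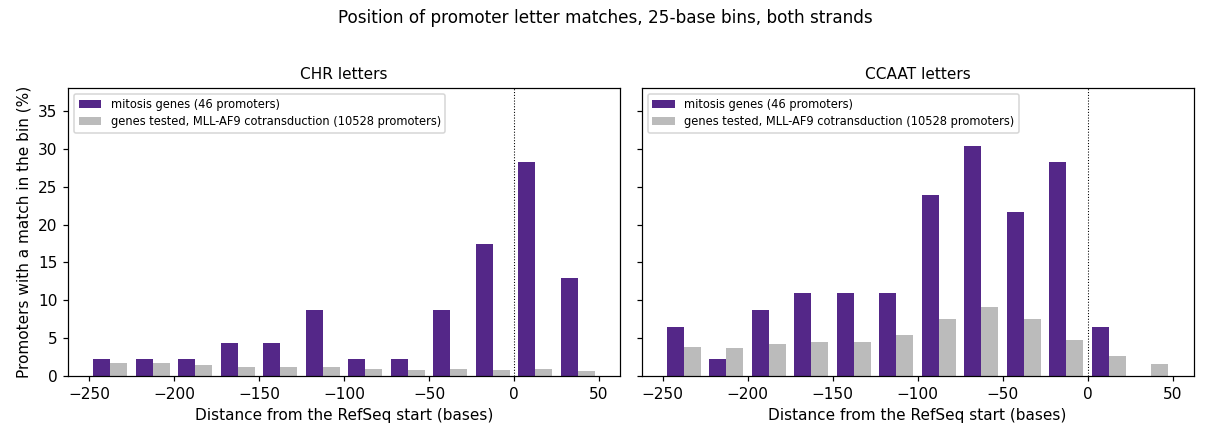
Share of promoters (percent, vertical axis) with the CHR letters TTTGAA (left) or CCAAT (right) on either strand in each bin of 25 bases, by distance from the RefSeq start (bases, horizontal axis). Purple bars are the 46 promoters of the mitosis genes and grey bars the 10528 promoters of genes tested in the MLL-AF9 cotransduction; the purple bars stand highest just around the start on the left and in the 100 bases before it on the right.

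In the MLL-AF9 cotransduction, 48 of the 50 mitosis genes fell with PRDM16 relative to PRDM16mut, and 2 rose (limma on log2 of FPKM plus 1, Benjamini-Hochberg adjusted p under 0.05). FPKM is the number of fragments assigned to a gene, divided by transcript length and by the mapped fragments of its library. Of all 11071 genes tested, 69.5% were called, 34% lower and 35.6% higher, so a call was common in this comparison while a call lower was not the rule. The median log2 fold change of the 50 genes was -0.80, beside 0.01 over all genes tested, and it ran from -1.50 for Mki67 to 1.07 for Cdc25b. A fall of at least 2-fold was called for 12 of the 50, against 6.98% of all genes. The FPKM of the groups overlapped for none of the 50, and 86.3% of all genes also did not overlap. In bulk RNA, fewer dividing cells and less of each transcript per cell cannot be told apart.

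The summed FPKM of the 50 genes was 1288 and 1298 in the PRDM16 libraries and 2118 and 2137 in the PRDM16mut libraries. As a share of all FPKM, this was 0.188% and 0.193% against 0.336% and 0.343%. The PRDM16 group was the lower in every one of these values. In the E2A-HLF cotransduction the share lay between 0.315% and 0.325% in all 4 libraries, and in the stable cells between 0.390% and 0.395%, without a gap of this kind between the forms of PRDM16. The 3 tables were made separately, so levels are compared only within a table.

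**Figure D2:**
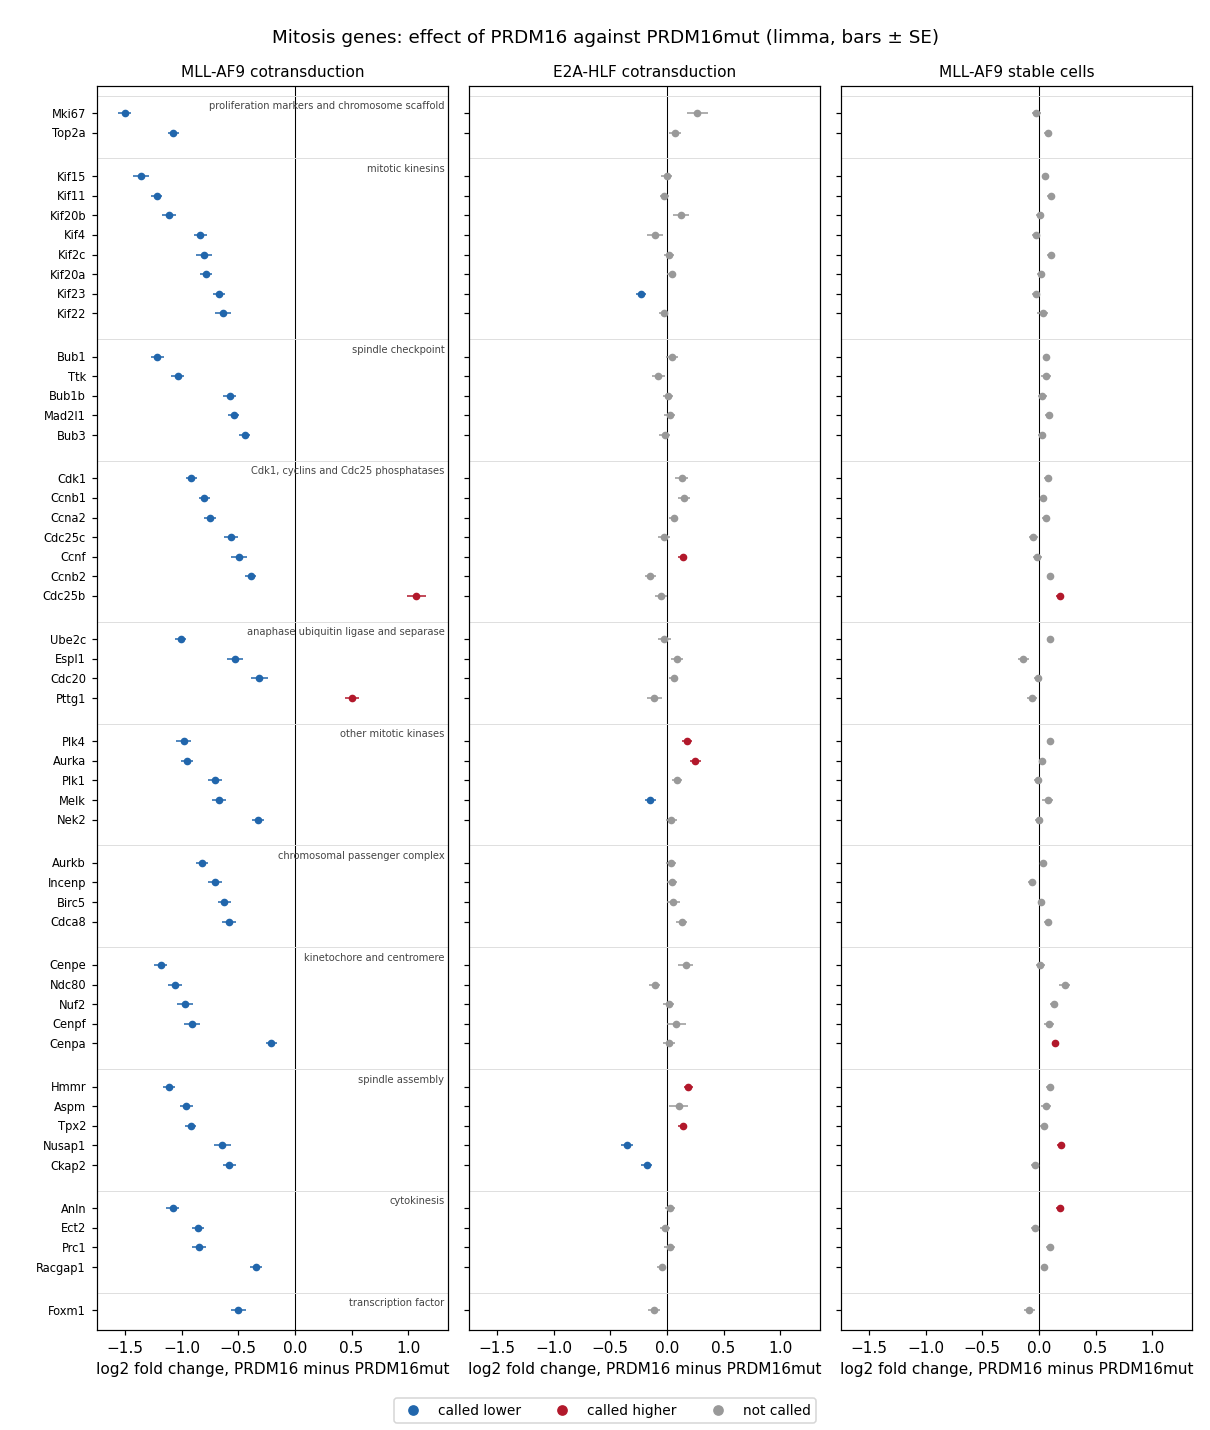
Log2 fold change of each of the 50 mitosis genes (PRDM16 minus PRDM16mut, horizontal axis, bars are the standard error of limma), grouped by role, in the 3 comparisons. In the MLL-AF9 cotransduction 48 points lie left of 0 and only Cdc25b and Pttg1 lie right of it, while in the other comparisons the points lie close to 0.

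Mki67, the Ki-67 protein that coats mitotic chromosomes and serves as the standard proliferation marker, fell the most. It measured 16.3 and 17.4 FPKM with PRDM16 and 48.7 and 50.7 FPKM with PRDM16mut. Both PRDM16 libraries were about equally low, and the mutant level was 2.94 times theirs (log2 fold change -1.50, SE 0.06, limma adjusted p = 2.46e-05). Top2a, the topoisomerase that untangles sister chromosomes, measured 52.8 and 52.4 against 110.01 and 113.6 FPKM, and fell by 1.07 on the log2 scale.

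All 8 mitotic kinesins, the motors that slide and sort microtubules, fell here, and their median log2 fold change was -0.82. Kif15, a motor that helps to hold the bipolar spindle, measured 7.39 and 6.54 against 19.3 and 19.5 FPKM (-1.36, SE 0.07, limma adjusted p = 5.82e-05). Kif11, or Eg5, the motor that pushes the spindle poles apart, measured 16.1 and 15.8 against 38.3 and 38.9 FPKM, without overlap (-1.22, SE 0.05, limma adjusted p = 2.90e-05). Kif20b, a motor of late cytokinesis, changed by -1.11. The others were Kif4 (-0.84), a chromosome arm motor, Kif2c (-0.80), which depolymerizes microtubules at centromeres, Kif20a (-0.79) and Kif23 (-0.67) of the midzone, and Kif22 (-0.63), which pushes chromosome arms. Kif15, Kif11 and Kif22 are among the promoters printed above.

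The checkpoint that delays anaphase was lower throughout, with all 5 members called and a median of -0.58. Bub1, a checkpoint kinase at kinetochores, measured 10.3 and 10.1 FPKM with PRDM16 and 24.4 and 25.6 FPKM with PRDM16mut (-1.21, SE 0.06, limma adjusted p = 3.99e-05). Ttk, or Mps1, the kinase that starts checkpoint signalling, changed by -1.04. The members that form the inhibitory complex itself changed less, Bub1b (BubR1) by -0.58, Mad2l1 (Mad2) by -0.54 and Bub3 by -0.44.

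Of Cdk1, its cyclins and the Cdc25 phosphatases that activate it, 6 fell and 1 rose. Cdk1, the kinase that drives entry into mitosis, measured 36.1 and 36.7 against 69.1 and 70.2 FPKM (-0.92, SE 0.05, limma adjusted p = 6.06e-05). Its partners Ccnb1 and Ccna2 changed by -0.80 and -0.75, and Ccnb2 by -0.39. Ccnf, which belongs to a ubiquitin ligase, changed by -0.49 and Cdc25c by -0.56. Cdc25b, the phosphatase held to trigger Cdk1 first at the centrosome, went the other way. It measured 13.4 and 15.6 FPKM with PRDM16 and 6.55 and 6.15 FPKM with PRDM16mut, a ratio of 2.28 between the group means (1.07, SE 0.09, limma adjusted p = 2.42e-04).

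In the set around anaphase, 3 genes fell and 1 rose. Ube2c, the ubiquitin-conjugating enzyme of the anaphase-promoting complex, was the most abundant of the 50 in every library of this comparison, at 85.1 and 87.7 against 175.3 and 174.7 FPKM (-1.01, SE 0.05, limma adjusted p = 4.20e-05). Espl1, the separase that cuts cohesin, changed by -0.53. Cdc20, the activator that lets the complex work in anaphase, measured 57.5 and 65.5 against 77.0 and 76.1 FPKM, a change of -0.31 (SE 0.07, limma adjusted p = 0.0132). Pttg1, the securin that holds separase inactive, was the other gene to rise. Its libraries measured 41.5 and 38.2 with PRDM16 and 28.0 and 27.6 FPKM with PRDM16mut, a change of 0.50 (SE 0.06, limma adjusted p = 0.00112). Separase and its inhibitor thus moved in opposite directions in the same libraries. The Pttg1 promoter window printed above holds neither motif. The 7 mitosis genes with neither motif, Pttg1 among them, had a median log2 fold change of -0.64, and 6 of them fell.

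**Figure D3:**
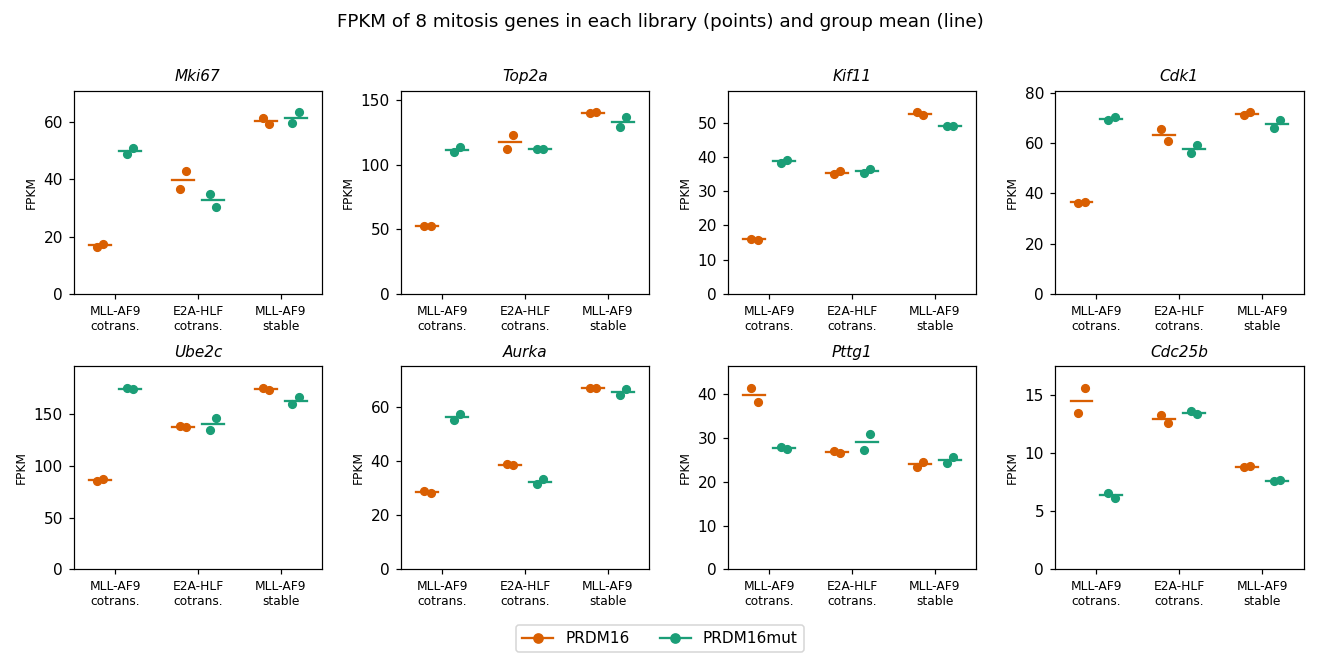
FPKM (vertical axis, from 0) of 8 mitosis genes in each of the 12 libraries, by experiment, with PRDM16 in orange and PRDM16mut in green; points are libraries and lines are means of 2. The orange points lie well under the green ones in the MLL-AF9 cotransduction for Mki67, Top2a, Kif11, Cdk1, Ube2c and Aurka and over them for Pttg1 and Cdc25b; levels are comparable only within an experiment.

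The 5 other mitotic kinases all fell. Plk4, which controls centriole copying, measured 9.05 and 8.17 against 18.2 and 17.7 FPKM (-0.98, SE 0.07, limma adjusted p = 1.42e-04). Aurka, the Aurora kinase of the spindle poles, measured 28.9 and 28.1 against 55.2 and 57.4 FPKM (-0.96, SE 0.05, limma adjusted p = 6.71e-05). Plk1, which acts from entry to cytokinesis, and Melk changed by -0.71 and -0.67. Nek2, a centrosome kinase, moved the least of them, from 15.5 and 15.7 with PRDM16mut to 12.04 and 12.48 FPKM with PRDM16, a change of -0.32. The chromosomal passenger complex, which corrects faulty attachments, moved as a narrow set, from -0.82 for its kinase Aurkb to -0.58 for Cdca8 (borealin), with Incenp at -0.71 and Birc5 (survivin) at -0.62. Aurkb measured 29.1 in both PRDM16 libraries and 50.8 and 53.6 FPKM in the mutant libraries.

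Kinetochore and centromere genes had the widest range of the roles whose members all fell, from -1.19 to -0.21. Cenpe, the kinesin that brings chromosomes to the metaphase plate, measured 5.63 and 5.34 against 13.5 and 14.0 FPKM (-1.19, SE 0.06, limma adjusted p = 5.25e-05). Ndc80 and Nuf2, partners in the complex that grips microtubules, changed by -1.06 and -0.97, and Cenpf by -0.91. Cenpa, the histone H3 variant that marks centromeres, changed the least of all 48 genes that fell. It measured 69.3 and 70.4 against 80.6 and 81.3 FPKM (-0.21, SE 0.05, limma adjusted p = 0.0118).

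Spindle assembly factors fell 5 of 5, with a median of -0.92, and cytokinesis genes 4 of 4, with a median of -0.85. Hmmr, a spindle protein also known as a hyaluronan receptor, measured 10.2 and 9.96 against 22.9 and 22.9 FPKM (-1.11, SE 0.05, limma adjusted p = 4.29e-05). Aspm, Tpx2, Nusap1 and Ckap2, all microtubule-associated, changed by -0.96, -0.92, -0.64 and -0.58. Anln, the anillin of the contractile ring, measured 7.56 and 8.001 against 17.5 and 17.6 FPKM (-1.08, SE 0.06, limma adjusted p = 6.09e-05). Ect2, the exchange factor that activates RhoA at the cleavage plane, and Prc1, which bundles midzone microtubules, changed by -0.86 and -0.85, and Racgap1, the partner of Kif23, by -0.34. Foxm1, a transcription factor of late cell cycle genes, measured 9.07 and 9.80 against 13.6 and 13.8 FPKM (-0.50, SE 0.06, limma adjusted p = 0.00121).

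Leaving out PRDM16mut replicate 1 left 44 genes lower, and leaving out PRDM16mut replicate 2 left 45, with 2 higher in each. The calls on Cdc20, Cenpa and Nek2 were lost without either mutant library (limma adjusted p from 0.0634 to 0.176), and that on Racgap1 without replicate 1 (limma adjusted p = 0.0565), while each kept its direction. The other 46 calls were made under every alternative tried, including another scaling of the libraries.

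The E2A-HLF cotransduction gave small differences in both directions. Of the 50 genes, 4 fell, 5 rose and 41 were not called by limma at a Benjamini-Hochberg adjusted p under 0.05, where 43.8% of all genes were called, 21.1% lower and 22.7% higher. None of the 50 fell at least 2-fold, and 2.81% of all genes did. The median log2 fold change of the 50 was 0.02, beside 0.01 over all genes tested, and the 95% intervals of all 50 lay between -0.48 and 0.51. The groups did not overlap for 29 of the 50 genes, and for 73.7% of all genes. After quantile normalization the split turned to 7 lower and 3 higher, with a median of -0.03. Each library mattered here, since 2, 2, 4 and 2 genes were called lower and 3, 1, 3 and 2 higher without PRDM16 replicate 1, PRDM16 replicate 2, PRDM16mut replicate 1 and PRDM16mut replicate 2.

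Nusap1, which bundles spindle microtubules, fell the most with E2A-HLF. It measured 25.4 and 23.5 FPKM with PRDM16 and 31.5 in both mutant libraries (-0.35, SE 0.05, limma adjusted p = 0.00278). Kif23, the midzone motor, measured 21.1 and 21.8 against 25.1 and 25.6 FPKM (-0.23, SE 0.04, limma adjusted p = 0.00827). Ckap2 measured 14.2 and 13.6 against 15.5 and 16.3 FPKM (-0.18), and Melk 10.3 and 10.2 against 11.3 and 11.6 FPKM (-0.15). Aurka rose, at 38.8 and 38.5 against 31.4 and 33.3 FPKM (0.25, SE 0.05, limma adjusted p = 0.00718). Hmmr rose by 0.19, from 23.1 and 23.2 to 26.5 and 26.5 FPKM, and Plk4 by 0.18, from 16.3 and 16.8 to 19.01 and 18.7 FPKM. Ccnf rose by 0.14, from 23.6 in both mutant libraries to 26.4 and 25.8 FPKM, and Tpx2 by 0.14. The calls on Nusap1, Kif23 and Aurka were made under every alternative tried, and the other 6 were not. Mki67, which had fallen furthest with MLL-AF9, measured 36.4 and 42.8 FPKM with PRDM16 against 34.9 and 30.4 FPKM here. Its groups did not overlap, and the difference of 0.27 did not pass (SE 0.10, limma adjusted p = 0.0681).

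In the MLL-AF9 stable cells, none of the 50 genes was called lower and 4 were called higher with PRDM16, while 6.36% of all genes were called, 2.16% lower and 4.2% higher (limma, Benjamini-Hochberg adjusted p). At an unadjusted p under 0.05, limma gave 1 of the 50 lower and 14 higher, against 11.7% and 17% of all genes. The median was 0.04, beside 0.01 over all genes, and the 95% intervals of all 50 genes lay between -0.25 and 0.35. The groups did not overlap for 35 of the 50, and for 60.6% of all genes. No member passed when any one of the 4 libraries was left out, so the 4 calls rest on each library.

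The genes called higher in the stable cells were Nusap1, Anln, Cdc25b and Cenpa. Nusap1 measured 31.4 and 29.7 against 26.5 and 26.7 FPKM (0.19, SE 0.04, limma adjusted p = 0.0465). Anln measured 25.4 in both PRDM16 libraries against 21.6 and 22.7 FPKM (0.19, SE 0.04, limma adjusted p = 0.0453). Cdc25b measured 8.81 and 8.85 against 7.59 and 7.66 FPKM, a change of 0.19 in the direction of its rise in the MLL-AF9 cotransduction (SE 0.04, limma adjusted p = 0.0473). Cenpa measured 102.4 and 104.0 against 93.4 and 93.3 FPKM (0.14, SE 0.03, limma adjusted p = 0.0467). Ndc80 had the largest difference of the 50 but did not pass, at 26.8 and 24.5 against 21.8 and 21.6 FPKM (0.23, SE 0.05, limma adjusted p = 0.0570). The lowest were Espl1, Foxm1, Pttg1 and Incenp, between -0.14 and -0.06, none of which passed. Espl1 measured 9.54 and 9.72 against 10.3 and 11.1 FPKM, and Foxm1 13.1 and 14.2 against 14.2 and 14.7 FPKM. Pttg1 measured 23.4 and 24.6 against 24.4 and 25.7 FPKM with overlap, and Incenp 47.4 and 46.1 against 47.8 and 49.8 FPKM without it.

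Across the 3 comparisons, 37 of the 50 genes were called lower in the MLL-AF9 cotransduction and not called elsewhere, a pattern that 18.7% of the 9489 genes tested in all 3 tables had. Another 5, Aurka, Hmmr, Plk4, Tpx2 and Ccnf, fell with MLL-AF9 and rose with E2A-HLF in the cotransductions, a share near the 10.1% of all genes with this pattern. Kif23, Ckap2 and Melk fell in both cotransductions alone (3.54% of all genes). Nusap1 fell in both and rose in the stable cells (0.169%). Anln and Cenpa fell in the MLL-AF9 cotransduction and rose in the stable cells (0.379%). Cdc25b rose in both MLL-AF9 experiments (0.59%), and Pttg1 rose in the cotransduction alone (16.3%) by these calls. The stable-cell calls rest on each library, as stated above. Of these E2A-HLF calls only those on Nusap1, Kif23 and Aurka were made under every alternative. The MLL-AF9 cotransduction call on Cenpa was not.

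The effect of PRDM16 in the MLL-AF9 cotransduction differed from that in the E2A-HLF cotransduction for all 50 genes and for 71.4% of all genes tested, in a fit of all 12 libraries with limma. It was the more negative for 48 of them, where 38.8% of all genes differed in this way, and the median difference was -0.81, beside -0.05 over all genes. Hmmr differed most clearly, by -1.30 (SE 0.05, limma adjusted p = 4.96e-09), followed by Kif11, by -1.20, and Aurka, by -1.21. Kif11 measured 34.9 and 35.8 against 35.4 and 36.4 FPKM with E2A-HLF, where its groups overlapped. Mki67 had a difference of -1.77. After median centring 47 of the 50 genes differed, and after quantile normalization 49. Against the stable cells the effect again differed for all 50 genes, and for 64% of all genes, and was the more negative for 48, where 33.4% of all genes did so, with a median of -0.82. Kif11 differed by -1.32 (SE 0.05, limma adjusted p = 1.01e-08), Hmmr by -1.21 and Anln by -1.27. In the stable cells Kif11 measured 52.96 and 52.1 against 48.8 and 48.9 FPKM and Hmmr 32.2 and 31.95 against 29.5 and 30.5 FPKM, both without overlap. Pttg1 and Cdc25b were the 2 exceptions each time, with differences of 0.61 and 1.13 against E2A-HLF and of 0.56 and 0.88 against the stable cells.

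Between E2A-HLF cotransduced and stable cells the effect differed for 6 of the 50 genes, against 37.1% of all genes. Nusap1 had the largest difference, -0.55 (SE 0.08, limma adjusted p = 5.66e-04), then Ndc80 at -0.34 and Ccnb2 at -0.25. With E2A-HLF Ndc80 measured 15.7 and 16.6 against 17.6 and 17.4 FPKM. Ccnb2 measured 63.99 and 61.04 against 67.1 and 71.5 FPKM with E2A-HLF, and 97.1 and 97.9 against 91.1 and 90.5 FPKM in the stable cells, so its groups did not overlap in either. Melk, Aurka and Kif23 differed by -0.22, 0.22 and -0.20. Without either PRDM16 library of the MLL-AF9 cotransduction, which enter this fit only through the shared spread, the number rose to 11, and it was 13 after quantile normalization.

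Genes outside the 50 that work beside them in the cell cycle were grouped into 7 further lists. In the MLL-AF9 cotransduction, 34% of all genes were called lower and 35.6% higher. There 28 of 32 other kinetochore genes fell and 1 rose, with a median of -0.78. Casc5, the Knl1 scaffold of the kinetochore, measured 2.86 and 2.79 against 8.68 and 9.11 FPKM (-1.37), and Ska2 and Mis18a changed by -1.21 and -1.12. Mad1l1, the anchor of Mad2, was the one that rose, by 0.42. Of 20 condensin and cohesin genes 19 fell and none rose, with Smc4 at 34.3 and 28.4 against 81.2 and 82.2 FPKM (-1.36), Ncapg2 at -1.24 and Smc2 at -1.19. Of 13 genes that control mitotic entry 8 fell and none rose, led by the phosphatase Cdc25a at -1.24. Its level was 12.6 and 13.6 with PRDM16 and 32.3 and 32.0 FPKM with PRDM16mut, so 2 of the 3 Cdc25 genes fell and Cdc25b alone rose.

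DNA replication genes also fell in most cases. In the list of 43 S phase genes, 35 fell and 1 rose in the MLL-AF9 cotransduction (median -0.44). Cdc45, a subunit of the replicative helicase, changed by -1.36 and the cyclin Ccne2 by -1.03. Of 21 genes of the DREAM and MuvB complexes and their E2F partners 12 fell and 4 rose, with a median of -0.33. Tfdp1, the E2F partner, and the repressor E2f8 changed by -1.08 and -0.998, and E2f5 rose by 0.76. Mybl2, the B-Myb that turns MuvB into an activator, measured 16.5 and 19.7 against 34.1 and 34.4 FPKM (-0.89). Subunits of the anaphase-promoting complex were 4 lower and 4 higher of 15. Without PRDM16mut replicate 1 or 2 none of them was called higher, and without PRDM16 replicate 1 or 2 the lower count was 8 or 7, as it was 8 with a spread shared over all 12 libraries.

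**Figure D4:**
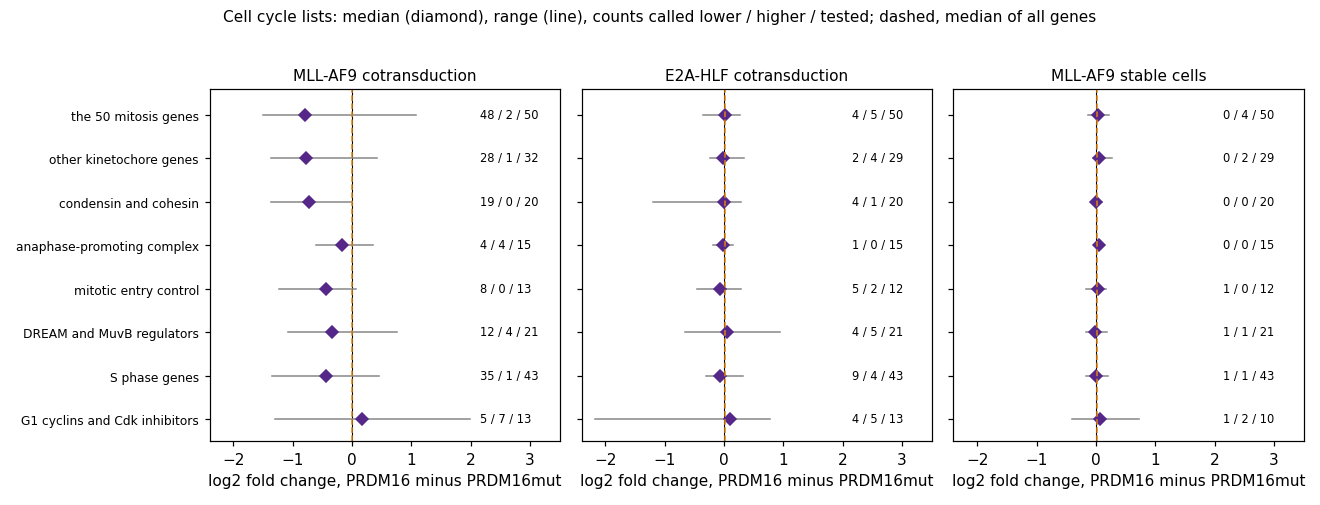
Median (diamond) and range (line) of the log2 fold change (PRDM16 minus PRDM16mut, horizontal axis) of the 50 mitosis genes and 7 other cell cycle lists in the 3 comparisons, with the numbers called lower, called higher and tested. The dashed line is the median of all genes tested; in the MLL-AF9 cotransduction the medians run from -0.80 for the 50 mitosis genes to 0.17 for G1 cyclins and Cdk inhibitors, with other kinetochore genes at -0.78 and condensin and cohesin at -0.73.

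Among 13 G1 cyclins, kinases and inhibitors, 5 fell and 7 rose in the MLL-AF9 cotransduction. Ccnd1, cyclin D1, measured 9.16 and 9.48 against 1.55 and 1.66 FPKM (1.99), and Cdkn2b, the inhibitor p15, 15.8 and 16.7 against 4.76 and 4.23 FPKM (1.65). Cdk6 changed by -1.30 and Cdk2 by -1.13. Cdkn1a, the inhibitor p21, rose in all 3 comparisons. It measured 200.3 and 211.5 against 108.2 and 108.3 FPKM in the MLL-AF9 cotransduction, 159.5 and 159.3 against 103.8 and 106.8 FPKM with E2A-HLF, and 61.2 and 57.7 against 46.8 and 46.3 FPKM in the stable cells. The log2 fold changes were 0.92, 0.59 and 0.35 (limma adjusted p = 7.12e-05, 1.64e-04 and 0.0156). Cdkn2a, of the Ink4a/Arf locus, was also called higher in all 3, but by 0.17, 0.77 and 0.73. Cdkn1c, the inhibitor p57, was called in each with changes of 0.28, -2.17 and -0.40. In the MLL-AF9 cotransduction the calls on Cdkn2a and Cdkn1c were lost with the length trend removed, where Cdkn2a changed by -0.11. That on Cdkn2a was also lost after quantile normalization (limma adjusted p = 0.0527) and with the replicate block (0.0648). It was lost without either mutant library too, at changes of 0.14 and 0.20. That on Cdkn1c was also lost with no filter on low values (limma adjusted p = 0.0762). Without PRDM16 replicate 1 or PRDM16mut replicate 1 it was lost too, at 0.23 and 0.19. In the stable cells the call on Cdkn1a was lost without any one library (limma adjusted p from 0.0546 to 0.091) and with no filter on low values (0.075), while its direction stayed. The 50 mitosis genes were called lower 48, 4 and 0 times in the same comparisons, where 34%, 21.1% and 2.16% of all genes were. The part of these inhibitors in the fall of the mitosis genes was not tested.

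With E2A-HLF the other lists had calls in both directions, except the anaphase-promoting complex with 1 lower and none higher of 15. Of all genes tested there, 21.1% were called lower and 22.7% higher. Other kinetochore genes were 2 lower and 4 higher of 29, and condensin and cohesin genes 4 lower and 1 higher of 20. Genes of mitotic entry were 5 lower and 2 higher of 12, DREAM and MuvB genes 4 lower and 5 higher of 21, and G1 genes 4 lower and 5 higher of 13. S phase genes were 9 lower and 4 higher of 43, and their lower count was 20 after quantile normalization, 17 with the length trend removed and 5 with the replicate block. It was 3, 3 and 4 without PRDM16 replicate 1, PRDM16 replicate 2 and PRDM16mut replicate 2. Ncapd3, a condensin II subunit, was the exception in size, at 23.3 and 23.9 against 55.1 and 55.3 FPKM (-1.19, limma adjusted p = 9.10e-06). E2f8, which had fallen in the MLL-AF9 cotransduction, rose from 10.2 and 10.4 to 21.3 and 20.3 FPKM (0.95). Cdkn1c, the inhibitor p57, measured 1.21 and 1.10 against 8.75 and 8.67 FPKM (-2.17). In the stable cells, of these 7 lists of 10 to 43 tested genes together, 4 genes were called lower and 6 higher. Of all genes tested there, 2.16% were called lower and 4.2% higher. Among the list genes called were Cdkn2a, of the Ink4a/Arf locus, higher by 0.73, and Cdkn1c, with a log2 fold change of -0.40. Leaving out any one of the 4 libraries left 0 lower and 1 higher, which was Cdkn2a, and with no filter on low values none of them passed.

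Most mitosis genes fell, both with and without the CHR letters. In the MLL-AF9 cotransduction all 31 mitosis genes with TTTGAA fell, with a median log2 fold change of -0.85, and 10 of the 12 without it fell, with a median of -0.65. Cdc25b and Pttg1 are the other 2 of those 12. Among 1154 other genes tested that hold TTTGAA, 38.1% were called lower with a median of -0.04, against 33.1% of those without it. With both motifs the share was 41.2%, and with neither 32.8%.

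Longer transcripts fell more in the MLL-AF9 cotransduction, among all genes as among the mitosis genes. The median over all genes tested ran from 0.20 for coding transcripts under 2000 bases to -0.25 for those of 6000 bases or more, and over the 50 genes from -0.48 (n = 8) to -0.93 (n = 6). Across genes, which are not independent replicates, Spearman's rho with length was -0.425 over the 50 and -0.213 over 10060 genes. In the stable cells it was -0.105 over the 50 and -0.234 over 9150 genes, and with E2A-HLF 0.293 over the 50 and 0.0321 over 9531 genes. Mki67, at 10061 bases, is among the longest of the 50, and Cenpa, at 1466, is the shortest. With the trend on length removed from each library, an alternative added after the data were seen, 48 genes were still called lower and 2 higher, with a median of -0.75.

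**Figure D5:**
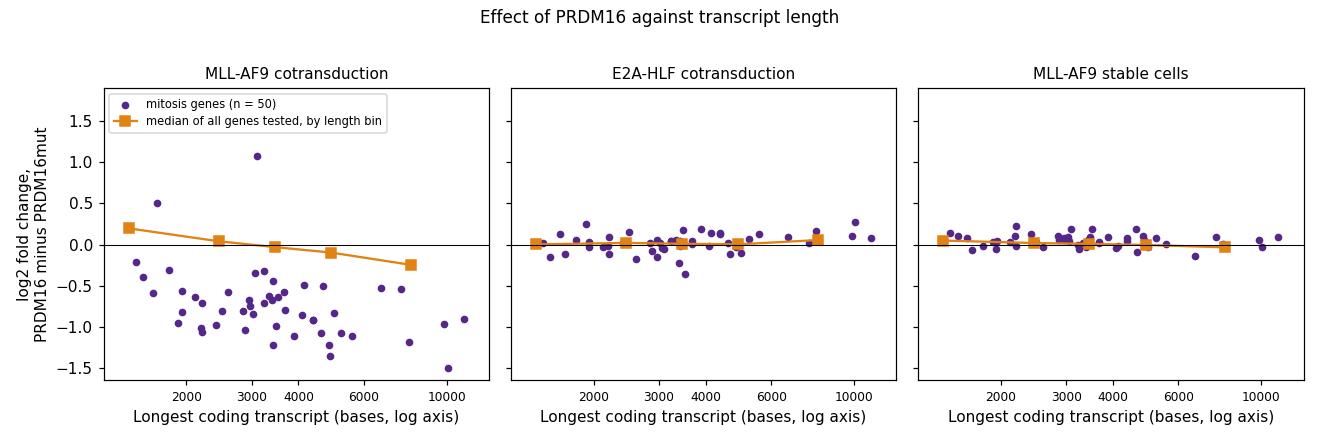
Log2 fold change (PRDM16 minus PRDM16mut, vertical axis) of the 50 mitosis genes against the length of the longest coding transcript (bases, log axis), in the 3 comparisons. Orange squares are medians of all genes tested in 5 length bins, each drawn at a point inside its bin. In the MLL-AF9 cotransduction 48 purple points lie below 0.

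Other features of these libraries moved with the mitosis genes in the MLL-AF9 cotransduction. Prdm16 measured 29.5 and 30.1 FPKM in the PRDM16mut libraries, below the 83.9 and 118.9 FPKM of the PRDM16 libraries (limma log2 fold change 1.71, adjusted p = 4.18e-04). These values do not tell an added form of PRDM16 from the cells' own gene. The form and the level of Prdm16 differed together here, and their parts cannot be told apart. Prdm16 was 49.2 and 56.6 against 56.6 and 43.5 FPKM with E2A-HLF (0.09, limma adjusted p = 0.622), and 77.9 and 80.0 against 89.1 and 94.6 FPKM in the stable cells (-0.22, limma adjusted p = 0.0414). All 9 neutrophil markers fell in the MLL-AF9 cotransduction, their summed FPKM being 1156 and 1096 against 53582 and 52515, and all 6 mast cell markers fell, with sums of 105.1 and 97.5 against 2135 and 2117. All 4 MHC class II genes, 5 of 6 monocyte and macrophage markers and all 3 tested erythroid markers rose. The summed FPKM of the 6 listed erythroid markers was 776.0 and 356.9 against 142.1 and 51.9, so libraries of the same group differed widely. Of 3 megakaryocyte markers 2 fell and 1 rose. Of 3 tested progenitor markers 2 fell and 1 rose. In the E2A-HLF cotransduction 6 of 7 tested neutrophil markers rose, all 4 MHC class II genes fell at least 2-fold and 3 of 4 progenitor markers fell. Mast cell markers were 1 lower and 3 higher of 4 there, and monocyte and macrophage markers 2 lower and 3 higher of 5. In the stable cells 2 of 9 neutrophil markers fell, and 1 of 6 monocyte and macrophage markers and 1 of 3 progenitor markers rose. The ribosomal precursor Rn45s had 1542 and 1554 FPKM in the PRDM16mut libraries of the MLL-AF9 cotransduction and was listed at 0 in the PRDM16 libraries, where the tables do not tell a gene without reads from a value that was not estimated. The part of any of these in the fall of the mitosis genes was not tested. Ptprc, the CD45 of blood cells, measured 43.5 FPKM or more in all 12 libraries, and the summed markers of B cells, T cells and stroma stayed under 2.56 FPKM in each library.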

How the data were processed

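The authors deposited 3 tables of FPKM values per gene symbol, 1 per experiment, from oligo(dT)-primed libraries. Per the submitters' processing notes, the tools were Bowtie2 2.0.0.7, TopHat2 2.0.3 and Cuffdiff (no version given), with build mm9. Read totals are unknown, and no counting interval was computed. Steps between low values make PRDM16 replicate 2 with MLL-AF9 (cotransduced) 1.63 times as deep as replicate 1.

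Values were tested as log2(FPKM + 1), a scale that understates the change of low genes, with limma 3.58.1 in R 4.3.3 (trend on mean level, two-sided). Genes that reached an FPKM of 1 in 2 or more of the 4 libraries were tested within each table, and p-values were adjusted by Benjamini-Hochberg over all of them, with a threshold of 0.05. Exact permutation of 2 against 2 libraries cannot go below p = 0.333. Effects were compared between experiments in 1 fit of 12 libraries over 9489 genes. The procedure was also run on simulated data in which only a small part of the genes was changed. In the MLL-AF9 cotransduction 69.5% of all genes were called, so that run does not tell how the procedure behaves there. Alternatives covered the pseudocount, filter, scaling, shared spread, replicate block, transcript length and leaving out each library.

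The 50 genes and all lists were chosen with earlier results of these data known. Library values are given for the called gene of largest change in each role, and for Prdm16 and Cdkn1a. They are also given for the 4 most positive and 4 most negative log2 fold changes and the 3 differences of smallest p per pair of experiments. Up to 3 called genes of each other list are named, some with library values and some by log2 fold change alone. Other genes with printed library values were added after their values were seen. Promoters and their coordinates come from RefSeq on GRCm38.p6, matched by symbol, and transcript lengths from GENCODE; no coordinate of the mm9 tables was used.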

Additional observations from a re-analysis of the deposited data

Results flagged for a closer look

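The effect of PRDM16 on the mitosis genes differed between experiments when the difference itself was tested with limma in a fit of all 12 libraries. Between the MLL-AF9 and E2A-HLF cotransductions it differed for 50 of 50 genes (47 after median centring, 49 after quantile normalization), and the differences of smallest p were those of Hmmr (-1.30), Kif11 (-1.20) and Aurka (-1.21). Between the MLL-AF9 cotransduction and the stable cells it also differed for 50 of 50, with the smallest p for Kif11 (-1.32), Hmmr (-1.205) and Anln (-1.27). Between E2A-HLF cotransduced and stable cells it differed for 6 of 50, with the smallest p for Nusap1 (-0.55), Ndc80 (-0.34) and Ccnb2 (-0.25). These values are on the log2 scale, the first experiment minus the second. Groups of 2 libraries are too small to test any library as an outlier.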

How the results depend on the processing

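No called value of the 50 genes changed direction under any alternative run. In the MLL-AF9 cotransduction the counts stayed at 48 lower and 2 higher under every setting that used all 4 libraries, and the lower count ran from 44 to 48 with 1 library left out. The median there was -0.7524 after median centring, -0.7544 with the length trend removed (an alternative chosen after seeing the data) and -0.791 to -0.7706 with 1 library left out. With E2A-HLF, the lower count of 4 became 2 with no filter and 7 after quantile normalization, and ran from 2 to 4 with 1 library left out. The higher count of 5 became 3 after quantile normalization or median centring and 8 with a spread shared over 12 libraries or the length trend removed, and ran from 1 to 3 with 1 library left out. Its median was -0.03249 after quantile normalization and -0.013 after median centring, and -0.000327 to 0.0458 with 1 library left out. In the stable cells the 4 higher calls became 0 with no filter, 2 with the shared spread, 10 with the length trend removed and 0 to 0 with 1 library left out. The 6 genes that differed between E2A-HLF and stable cells became 13 after quantile normalization, 12 after median centring and 4 to 11 with 1 library left out. With the replicate block, E2A-HLF gave 2 lower and 2 higher and the MLL-AF9 cotransduction 48 lower; same-numbered libraries deviated together with r of 0.067, 0.289 and 0.319, and the numbers were not taken as pairs. The cause of these shifts was not tested. A left-out library leaves 1 in its group, which is then assumed to vary like the others. The depth of the libraries is unknown, so precision rests on 2 libraries a group.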
